A study of Canis lupus familiaris with 30 samples.

Results

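The genes described here mark T cells, natural killer (NK) cells, B cells and plasma cells. They are 38 genes listed by symbol, each for its known role in these cells, in a list drawn up with earlier results of these data known, and 36 of them were found among the 30424 genes of the count table. CD8B and NKG7 were not found under these symbols and were not analysed. RNA had been sequenced from 30 primary thyroid tumors of dogs, 1 library per tumor, as total RNA with ribosomal RNA removed. The labels give every sample as tumor tissue of the thyroid gland, with no treatment, time point or untreated sample, and they do not give the tumor type, so all 30 tumors were kept as 1 group and are named by their library. The questions asked of the genes were therefore how much of each there was in every tumor and which of them varied together.

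T cells recognize antigen through the T cell receptor, whose signal passes through the CD3 chains to the kinases LCK and ZAP70, with CD4 or CD8 as co-receptor. Cytotoxic T cells and NK cells kill through granules of perforin and granzymes. B cells use the B cell receptor with its CD79A and CD79B signalling chains, and they mature into plasma cells, which secrete antibody and use the joining chain JCHAIN for its polymeric forms. In a piece of tumor such transcripts can come from lymphocytes that have entered the tissue, although several of these genes are also expressed in other cells. Which cells they came from here was not tested.

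The total count per tumor was 12288945 to 45148677 (median 25569678). Counts were normalised by a size factor, 0.279 in TC538 and at most 1.62, and a level is log2 of the normalised count plus 1. Values in single tumors are given as raw counts, and tumors are put in order by normalised count, except for the CD3 share below. Any 2 tumors had a Spearman correlation of 0.797 to 0.959 across genes, and 0 pairs were identical. The 9 listed genes of thyroid follicular cells, the markers of the labelled tissue, were all found, and their summed normalised counts were lowest in TC1088 (196), TC2289 (962), TC1473 (3040), TC1020 (3640) and TC1936 (8120). Markers of C cells, the calcitonin-producing cells of the thyroid, were highest in TC1936, TC1601, TC1020, TC1473 and TC2289, whose mean levels over the 6 listed genes were 7.14 to 11.18 above the genes' medians on the log2 scale, against 4.85 in the next tumor.

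Most of the lymphocyte genes had few counts per tumor. The median count was under 10 for 14 of the 36 genes, and 3 (CD5, CD79A and JCHAIN) had a median of at least 100. A count of 0 in at least 1 tumor, which allows up to 3 counts there, was found for 15. Low counts were not particular to these genes. Of all 30424 genes of the table, 15611 had a count above 0 in every tumor. At least 10 counts in at least 5 tumors were reached by 18711 of all genes and by 33 of the 36. The CD3D, CD3E and CD3G counts together were 31.5 per tumor in the median, or 1.22 CPM (the count as a share of the tumor's total, scaled to 1000000). The highest share was 15.3 CPM in TC1473 (403 counts, exact binomial 95% interval 13.8 to 16.9) and the lowest was 0.421 CPM in TC1869 (19 counts, 0.253 to 0.657). TC1601 had 7.24 CPM (6.3 to 8.28) and TC815 had 5.99 (5.11 to 6.99), so the interval of TC1473 lay above those of all other tumors, while the intervals of most neighbours in this order overlapped. The share also depends on how much of the total a few abundant genes take up. The 10 largest genes held 40.3% of the counts in TC2289 (CD3 share 4.74 CPM) and 18.6% in TC815. By normalised CD3E count TC2289 (92.2) stood above TC815 (87.3). The intervals cover counting error only, and in bulk tissue fewer T cells and less RNA per T cell cannot be told apart.

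**Figure D1:**
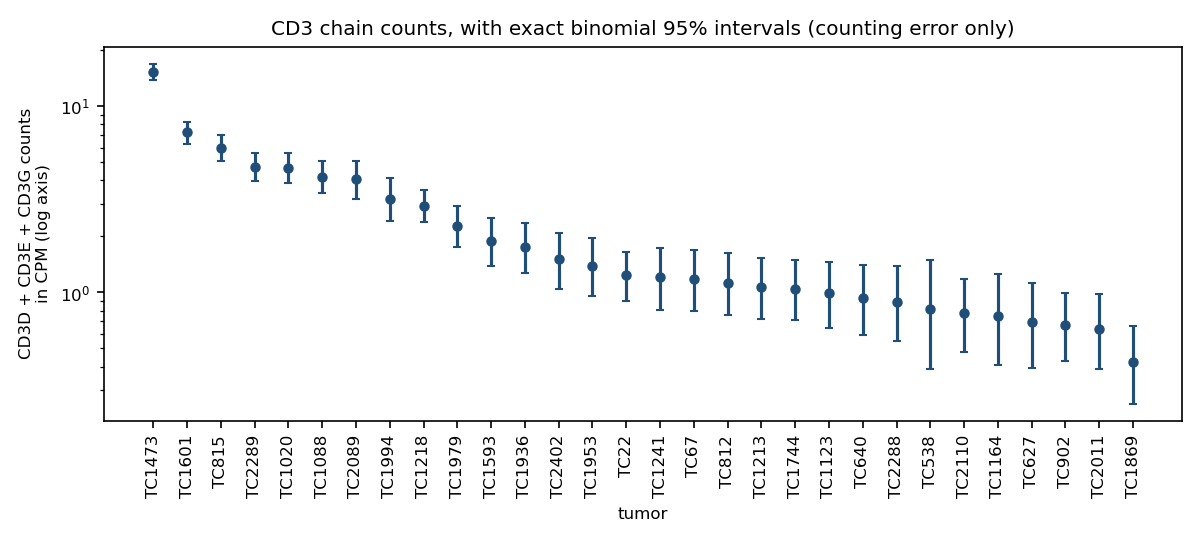
Summed CD3D, CD3E and CD3G counts in CPM (log axis) in each of 30 tumors, in falling order, with exact binomial 95% intervals as bars. TC1473 stands at 15.3 CPM, above all other tumors, and TC1869 is lowest at 0.421.

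TC1473, TC2289 and TC1601 held the highest normalised count of 21 of the 33 lymphocyte genes that passed the filter of at least 10 counts in at least 5 tumors. TC1473 was highest for 9 of them, where it was highest for 6.27% of all 18711 genes that passed, TC2289 for 7 (6.15% of all genes) and TC1601 for 5 (5.57%). TC1473 was among the 3 highest tumors for 21 of the 33 genes (19.7% of all genes), TC1601 for 17 (15.7%), TC2289 for 14 (17.7%), TC815 for 11 (5.74%) and TC1020 for 9 (16.5%). By mean level over the 9 T cell surface genes, relative to each gene's median, TC1473 (2.25), TC1601 (1.68) and TC2289 (1.64) were highest and TC1869 (-0.74), TC627 (-0.76) and TC1241 (-0.96) lowest. Of the 5 tumors with high C cell markers, TC1473, TC1601, TC2289 and TC1020 were among the 5 highest for CD3E, and TC1936 had a CD3 share of 1.75 CPM. TC815 was rich in lymphocyte genes with C cell markers near their median (0.02). The tumor type is not in the labels, and its part in these values was not tested.

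The spread of the lymphocyte genes between tumors depended on how low counts were treated. The median SD of the level was 1.21 over the 33 genes and 0.95 over all genes that passed, and 25 of the 33 had an SD above 1, as did 45.7% of all genes. With a pseudocount of 8 in place of 1, the median SD was 0.76 against 0.79, and 8 of the 33 had an SD above 1, as did 30.6% of all genes. EOMES, MS4A1 and PAX5 did not pass. The spread was widest for CCR7 (SD 1.74), BLK (1.71), CD4 (1.59), POU2AF1 (1.59) and ZAP70 (1.49), and narrowest for CD22 (0.71), CD5 (0.78) and TNFRSF17 (0.79). The genes differ in counting error, which is larger for those with few counts.

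**Figure D2:**
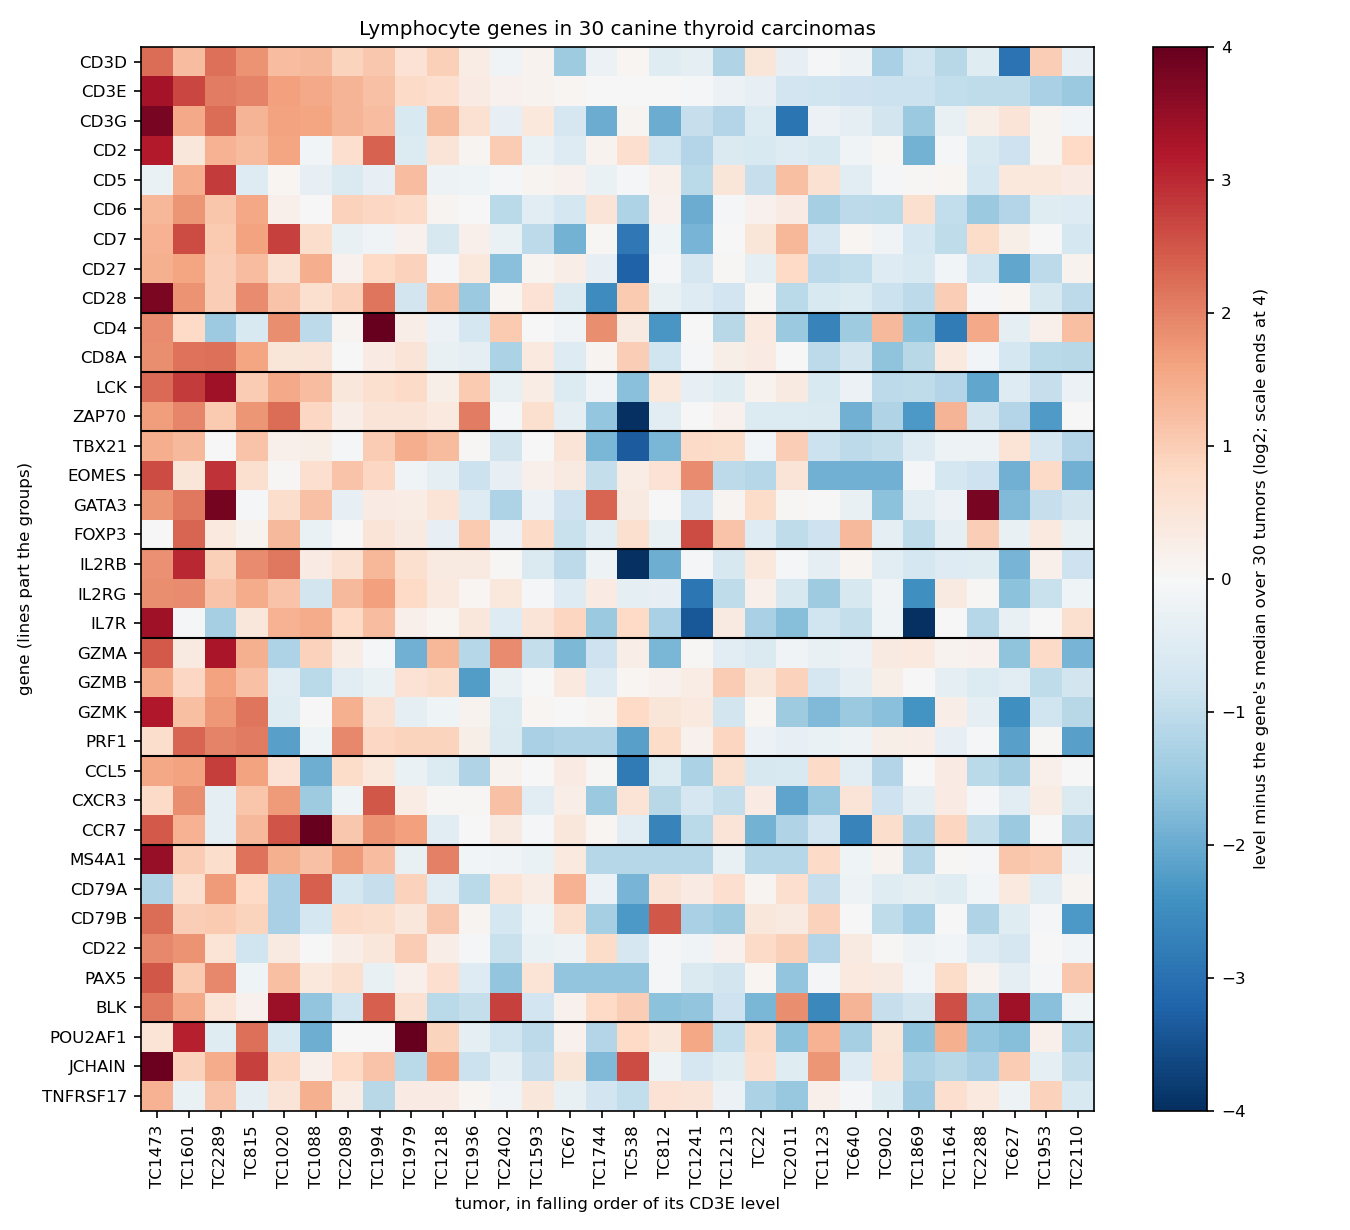
Heat map of the level of 36 lymphocyte genes (rows, parted into groups by role) in 30 tumors (columns, in falling order of CD3E), as log2 difference from the gene's median over tumors, with the color scale ending at 4. Most T cell rows are red in the leftmost tumors from TC1473 on, whereas CD5, CD79A, FOXP3, BLK and POU2AF1 have their high values elsewhere as well.

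CD3E, a signalling chain of the T cell receptor complex, served as the reference for T cells, because it had at least 10 counts in 24 tumors. Its counts ranged from 6 to 249, with a median of 23.5, and TC1473 (249), TC1601 (167) and TC2289 (72) were highest. The levels ran on without a break that would part the tumors, the largest gap being 13.6% of their range. Every gene was compared with CD3E by Spearman's rho over the 30 tumors, with Benjamini-Hochberg adjustment over all genes and a call at an adjusted p below 0.05. Of the 32 other lymphocyte genes tested, 10 rose with CD3E, where 0.433 percent of all 18710 genes tested did (81 genes). None of the 32 fell with it, where 0.278 percent of all genes did (52 genes). The median rho was 0.49 over the lymphocyte genes and 0.00 over all genes.

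The genes that rose were CD3D, CD6, CD27, CD8A, LCK, ZAP70, IL2RB, IL2RG, GZMK and CCR7. With the first 2 principal components of the 1000 most variable genes regressed out (36.5% and 6.88% of their variance), LCK alone of the lymphocyte genes rose, with 0.0107 percent of all genes (2 genes), while the median partial rho of the lymphocyte genes was 0.46. The first component set apart the tumors with high C cell markers, at 0.350 (TC1601) to 0.443 (TC1020), against 0.056 in the next tumor, TC1088. Regressing it out therefore also takes out differences between those tumors and the others. By edgeR's slope on the CD3E level 21 of the 32 rose, where 8.72 percent of all genes did.

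**Figure D3:**
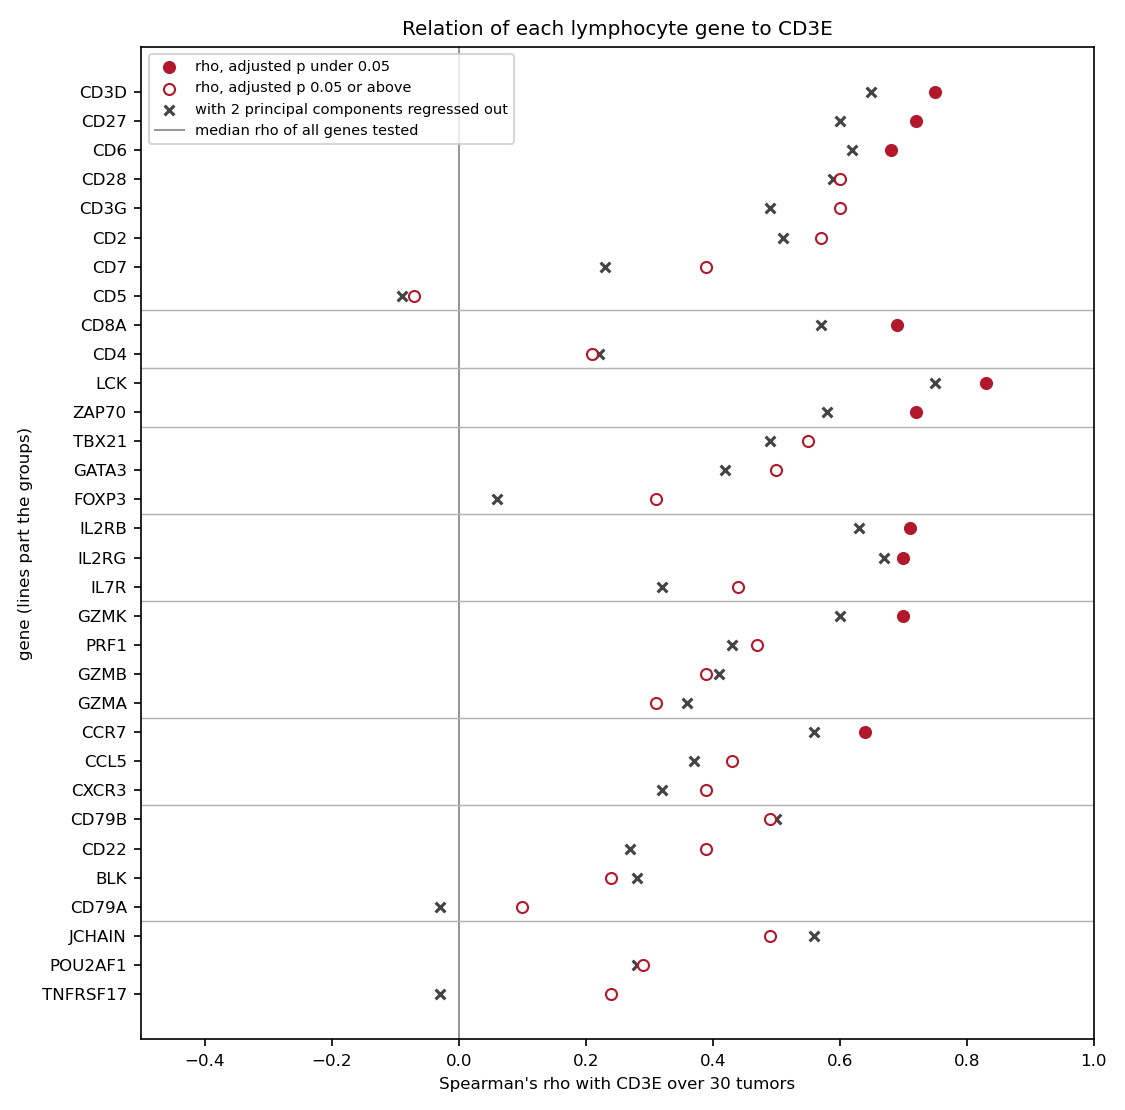
Spearman's rho with CD3E over 30 tumors (horizontal axis) for each of 32 lymphocyte genes, grouped by role, with filled circles for an adjusted p under 0.05, open circles for others, and crosses for rho after 2 principal components were regressed out. LCK lies farthest right at 0.83, CD5 lies at -0.07, and the vertical line marks the median of all genes, 0.00.

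Among the other 8 genes of the T cell surface, 3 rose with CD3E. CD3D, its partner in the receptor complex, had 0 to 39 counts (median 6.5; TC1473 39, TC2289 27, TC815 32) and a rho of 0.75 with CD3E (r = 0.76, permutation p = 1e-05 for both, the smallest the permutations can give; r = 0.72 without TC1473 and TC1601). CD6, a surface receptor that tunes T cell activation, had 3 to 107 counts and was highest in TC1601, TC815 and TC1473 (rho 0.68, adjusted p = 0.0139). CD27, a costimulatory receptor of the TNF receptor family, had 0 to 32 counts (rho 0.72, adjusted p = 0.00647). The RefSeq annotation of another dog assembly has CD27 overlapping TAPBPL, whose level had a rho of 0.66 with that of CD27, and the strand setting of the counting is not given in the sources used here, so reads of the 2 genes could have been mixed.

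CD3G (rho 0.60, adjusted p = 0.0575), CD28 (0.60, 0.0582) and CD2 (0.57, 0.0714) missed the threshold. CD28, the main costimulatory receptor of T cells, had 84 counts in TC1473, 17 in TC1994, 25 in TC815 and a median of 4. CD2, an adhesion receptor of T and NK cells, had 15 to 520 counts (median 49.5), with TC1473 (520) far above TC1994 (190) and TC1020 (159). CD7, an early T cell marker, had a rho of 0.39 (adjusted p = 0.281).

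CD5, a receptor that dampens T cell receptor signals, did not follow CD3E. Its counts ran from 70 to 1432 with a median of 282.5 and were highest in TC2289 (1432), TC1601 (833) and TC1979 (764). TC1473, highest for CD3E, was below the median of CD5. The Spearman correlation with CD3E was -0.07 (permutation p = 0.723, adjusted p = 0.911), the only value below 0 among the lymphocyte genes, and it was 0.12 with total-count scaling.

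**Figure D4:**
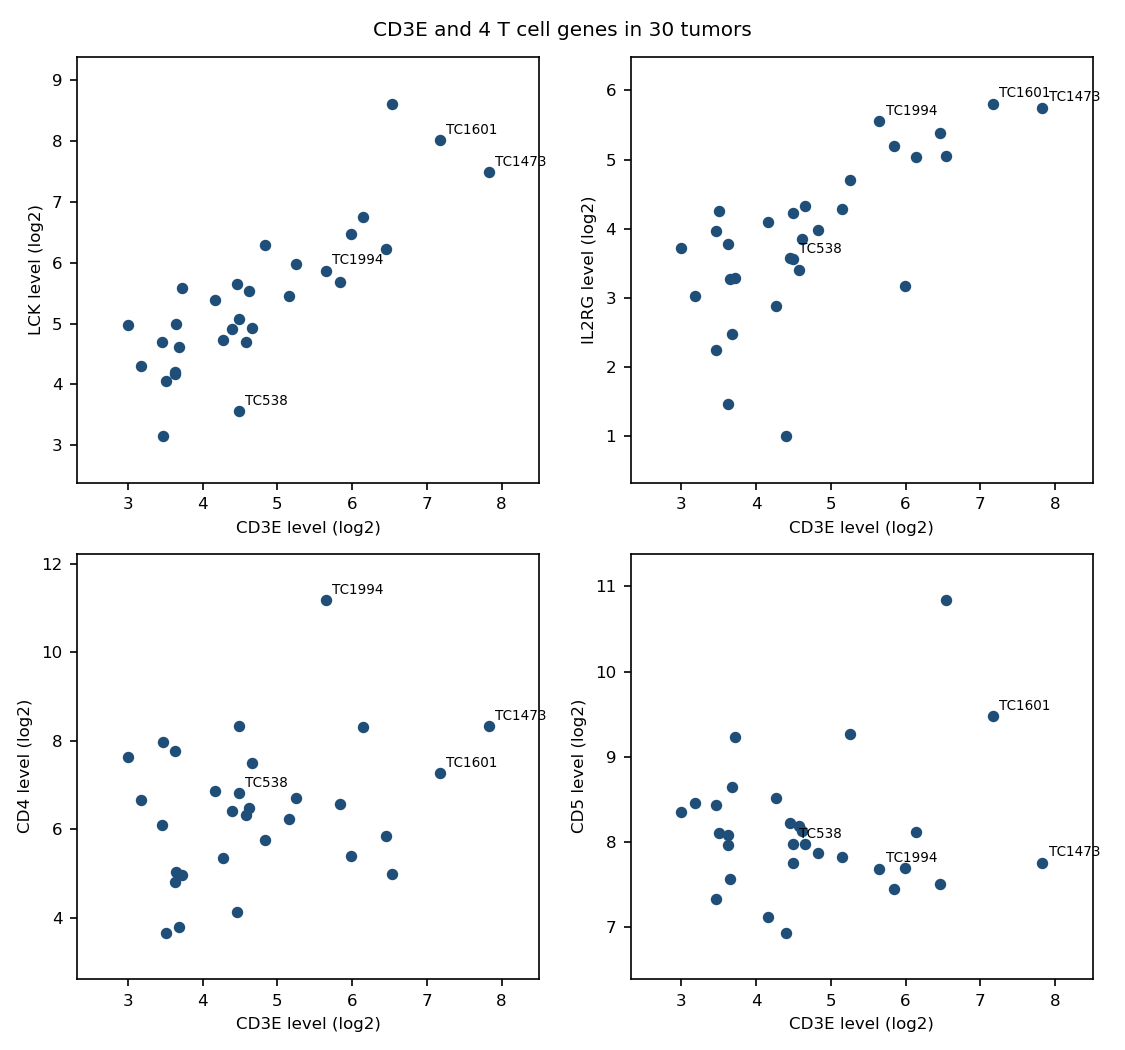
Levels (log2 of normalised count plus 1) of LCK, IL2RG, CD4 and CD5 (vertical axes) against CD3E (horizontal axes), 1 point per tumor with 4 tumors named. LCK (rho 0.83) and IL2RG (0.70) rise along CD3E, CD4 (0.21) and CD5 (-0.07) scatter, and TC1994 stands highest for CD4.

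Of the co-receptors, CD8A passed the test with CD3E and CD4 did not; the difference between them was not tested. CD8A, of cytotoxic T cells, had 3 to 49 counts with a median of 8, and TC2289 (34), TC1601 (49) and TC1473 (37) were highest. It rose with CD3E (rho 0.69, r = 0.79, adjusted p = 0.0122; r = 0.70 without TC1473 and TC1601). CD4, of helper T cells and, in dogs, also of neutrophils, had 9 to 1650 counts with a median of 83. TC1994 had 1650 counts and the next tumors 353 (TC1473), 341 (TC1744) and 324 (TC1020). Its rho with CD3E was 0.21 (permutation p = 0.274, adjusted p = 0.651). The difference between the CD8A and CD4 levels ran from -7.57 in TC1994 to 0.49 in TC2289, which compares tumors and is not a ratio of transcripts.

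Both receptor kinases rose with CD3E. LCK, which phosphorylates the CD3 chains, had 3 to 306 counts with a median of 38. TC2289 (306), TC1601 (301) and TC1473 (197) were highest, and TC2288 (7) and TC538 (3) lowest. Its rho with CD3E was 0.83, the highest among genes with a symbol (r = 0.84, adjusted p = 0.000333; r = 0.78 without TC1473 and TC1601). ZAP70, which docks on the phosphorylated chains, had 0 to 105 counts with a median of 21 and was highest in TC1020 (105), TC1936 (86) and TC1601 (97). Its rho was 0.72 (adjusted p = 0.00683).

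Of the 22 further genes of the T cell receptor pathway, 20 were found and 18 tested, of which 4 rose with CD3E and 1 fell. ICOS, a costimulatory receptor of activated T cells, rose (rho 0.75, adjusted p = 0.00379) and had 146 counts in TC1473 and 65 in TC815. UBASH3A (rho 0.74), a regulator of receptor signalling, and THEMIS (0.67), a signalling adaptor, rose too. RASGRP1, which links the receptor to RAS, fell (rho -0.61, adjusted p = 0.0464). PLCG1, the phospholipase of the pathway, had a rho of -0.36 (adjusted p = 0.327). Outside the lists, the genes closest to CD3E were FCRL4 (rho 0.79), SIT1 (0.79), P2RY10 (0.77) and HLA-DQB2 (0.76), a class II antigen-presentation gene. Of the 9 genes of thyroid follicular cells 4 fell with CD3E, namely DUOX2 (rho -0.76), DUOXA2 (-0.75), TG (-0.70) and DIO1 (-0.66). DUOX2 had its lowest counts in TC1088 (3) and in the tumors with high C cell markers. These were TC1020 (0), TC2289 (1), TC1473 (54), TC1936 (313) and TC1601 (1069). The part of the tumor type in these relations was not tested. With the principal components regressed out, 0 genes of the table fell by the adjusted test. The partial rho was still -0.68 for DUOX2, -0.67 for DUOXA2, -0.55 for DIO1 and -0.52 for TG.

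None of the 3 lymphocyte transcription factors tested passed the threshold with CD3E. TBX21, the factor of T helper 1 and NK cells, had 0 to 38 counts and a rho of 0.55 (adjusted p = 0.089). FOXP3, the factor of regulatory T cells, had 9 to 129 counts with a median of 21. TC1241 (129) and TC1601 (124) were highest, ahead of TC640 (54), and the rho with CD3E was 0.31 (adjusted p = 0.43). TC1241, highest for FOXP3, had a CD3 share of 1.21 CPM, close to the median tumor. EOMES, related to TBX21, was not in the adjusted test and had a rho of 0.60 with CD3E (permutation p = 0.00063).

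GATA3, the factor of T helper 2 cells, is also expressed in parathyroid tissue. Its counts ranged from 2 to 147 with a median of 11.5, and TC2289 (131) and TC2288 (147) stood above TC1744 (63). TC2288 also held the parathyroid genes PTH (25445 counts, next highest 296) and GCM2 (178, next highest 7). TC2289 was 1 of the tumors highest in T cell genes. CASR, the calcium-sensing receptor of parathyroid and C cells, was highest in TC1020 (47292 counts) and TC1473 (32483). GATA3 had a rho of 0.50 with CD3E (adjusted p = 0.127). The part of parathyroid tissue in the GATA3 values was not tested.

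Cytokine receptor chains followed CD3E in 2 of 3 cases. IL2RB, a chain of several interleukin receptors, had 0 to 203 counts with a median of 22 and was highest in TC1601 (203), TC1020 (96) and TC815 (97). It rose with CD3E (rho 0.71, adjusted p = 0.00976; r = 0.52 without TC1473 and TC1601). IL2RG, the common gamma chain, had 1 to 64 counts and rose (rho 0.70, adjusted p = 0.0113). IL7R, which keeps resting T cells alive, had 1 to 366 counts with a median of 34, with TC1473 (366) well above TC1088 (88) and TC1020 (85), and a rho of 0.44 (adjusted p = 0.193).

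Among the 4 cytotoxic granule genes, GZMK rose with CD3E by the adjusted Spearman test and the other 3 missed the threshold. GZMK had 2 to 191 counts with a median of 17.5, and TC1473 (191) and TC815 (102) were highest (rho 0.70, r = 0.79, adjusted p = 0.0113). GZMA had 1 to 50 counts with a median of 5 and was highest in TC2289 (50), with a rho of 0.31 (adjusted p = 0.437). GZMB, the apoptosis-inducing granzyme, had a rho of 0.39 (adjusted p = 0.28). PRF1, the pore-forming perforin, had 0 to 25 counts with a median of 4 and a rho of 0.47 (adjusted p = 0.159). By edgeR's slope GZMA (adjusted p = 0.0154) and PRF1 (adjusted p = 0.00936) also rose. Of the 17 further NK and cytotoxic genes, 15 were found and 8 tested, and FASLG, the death ligand of cytotoxic cells, rose (rho 0.63, adjusted p = 0.0382; 59 counts in TC1473, median 3). CRTAM, a receptor of activated cytotoxic cells, had a rho of 0.66 (permutation p = 0.00011) but too few counts for the adjusted test, SAMD3 had -0.29, and NCR1, an NK cell receptor, had -0.05.

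CCR7, which brings lymphocytes and dendritic cells to lymph nodes, had 422 counts in TC1088, where the next tumors had 36 (TC1020) and 37 (TC1473) and the median was 6. It rose with CD3E (rho 0.64, adjusted p = 0.0284), a call that was lost on leaving out any of TC1020, TC1473, TC1601, TC1979, TC2089, TC627 or TC815. TC1088 was also highest for CCL19, a chemokine ligand of CCR7 looked at after its values were seen, with 7860 counts against 55 in the next tumor. CCL5, a chemokine made by activated T and NK cells, had 2 to 307 counts (rho 0.43, adjusted p = 0.209). CXCR3, a receptor of effector T cells, had 1 to 33 counts (rho 0.39, adjusted p = 0.281).

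B cell genes had few counts in most tumors, with CD79A as the exception. MS4A1, which encodes the B cell antigen CD20, had a median of 1 count, was at 0 in 7 tumors and was highest in TC1473 (26), TC815 (11) and TC1218 (13). PAX5, the B cell identity factor, had a median of 2 and at most 17 counts, in TC1473. CD79B had a median of 4 counts and was highest in TC812 (29) and TC1473 (24). By contrast CD79A had 950 to 64099 counts with a median of 13649.5, and TC1088 (64099), TC2289 (30767) and TC67 (33757) were highest. TC1473, highest for MS4A1 and PAX5, was among the tumors with low CD79A.

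CD79A was the B cell reference, since MS4A1 did not reach 10 counts in 15 tumors. None of the 32 other lymphocyte genes tested rose with it, where 1.4 percent of all genes did, and none fell, where 0.855 percent did. The median rho was -0.02 over the lymphocyte genes and -0.01 over all genes. By edgeR's slope CCR7 (adjusted p = 0.0267) and CD5 (0.0279) rose, where 2.81 percent of all genes did. CD4 (0.0421) fell by that slope, where 2.59 percent of all genes did. The CD79B level had a rho of 0.10 with CD79A (adjusted p = 0.813), and BLK, a kinase of B cell receptor signalling, had -0.07 (adjusted p = 0.863). The genes closest to CD79A were RPL13A (rho 0.91), RPL18 (0.91), DYRK1B (0.90) and TFPT (0.90), of which RPL13A and RPL18 encode ribosomal proteins. Over 57 ribosomal protein genes, a list drawn up after these values were seen, the median rho with CD79A was 0.64, against -0.01 over all genes, and 38 of them had a rho above 0.5, as did 2.72% of all genes. RefSeq places the ribosomal protein gene RPS19 beside CD79A in another dog assembly, and the count table held 0 rows with that symbol. What reads the CD79A row holds was not tested.

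With MS4A1 as the reference, chosen after the values were seen, CD3G rose (rho 0.80, adjusted p = 0.00164), 1 of the 2 genes that did among all tested (0.0107 percent). JCHAIN had a rho of 0.61 (adjusted p = 0.0838) and CD79A -0.17. BLK had 0 to 66 counts with a median of 4, was highest in TC1020 (66), TC627 (50) and TC2402 (39), and had a rho of 0.24 with CD3E. CD22, an inhibitory receptor of B cells, had 7 to 173 counts with a median of 41, and TC1473 (173) and TC1601 (168) were highest. Of the 17 further genes of the B cell receptor pathway 15 were found and 13 tested, and none rose or fell with CD3E. Highest were LYN (rho 0.57, adjusted p = 0.0728), a kinase, and CIITA (0.57, 0.0763), the activator of class II genes. The adaptor BLNK had a rho of -0.35.

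**Figure D5:**
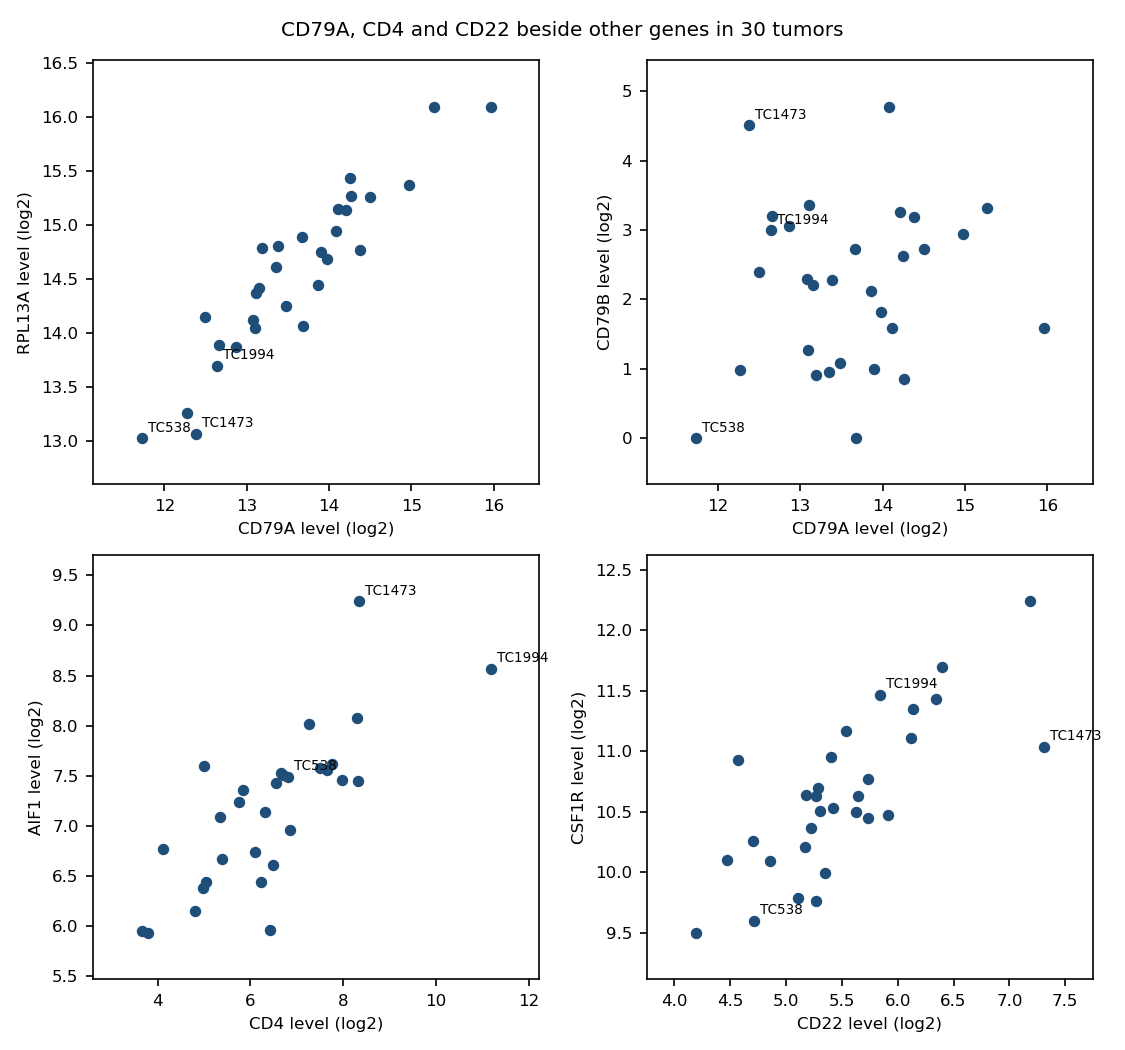
Levels (log2 of normalised count plus 1) of RPL13A and CD79B against CD79A, of AIF1 against CD4 and of CSF1R against CD22, 1 point per tumor with 3 tumors named. RPL13A rises along CD79A (rho 0.91) and CD79B does not (0.10), while AIF1 rises along CD4 (0.77) and CSF1R along CD22 (0.74).

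Of the plasma cell genes, JCHAIN had 225 to 11910 counts with a median of 752.5, and TC1473 (11910), TC815 (5869) and TC538 (1219, in the library with the smallest size factor) were highest. Its rho was 0.49 with CD3E (adjusted p = 0.139) and -0.16 with CD79A. POU2AF1, a coactivator of late B cells, had 913 counts in TC1979, 191 in TC1601 and a median of 13. TNFRSF17, the BCMA receptor of plasma cells, had 9 to 189 counts with a median of 65 and was highest in TC1088 (177) and TC1473 (189). With JCHAIN as the reference, POU2AF1 had a rho of 0.37 (permutation p = 0.0473, adjusted p = 0.305) and TNFRSF17 0.04 (adjusted p = 0.938).

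None of the 32 other lymphocyte genes tested rose with JCHAIN by the adjusted Spearman test, where 0.0428 percent of all genes did (8 genes, 1 of them with a symbol, TRIM69), and none fell, where 0.0107 percent did. The median rho was 0.31 over the lymphocyte genes and 0.00 over all genes. By edgeR's slope 10 of the 32 rose, where 5.71 percent of all genes did. CD28 was closest (rho 0.67, r = 0.75, adjusted p = 0.0546; r = 0.61 without TC1473 and TC815), and it passed the threshold with any of TC1123, TC1164, TC1593, TC2288, TC627 or TC640 left out. Outside the lymphocyte genes ITGA4 (rho 0.68), IKZF3 (0.67), SLAMF1 (0.67) and ABCC9 (0.67) followed TRIM69 (0.70). None of the 8 further plasma cell genes rose or fell with CD3E, from IRF4 (rho 0.42), a factor of plasma cells, and FKBP11 (0.33) down to DERL3 (-0.05) and PRDM1 (-0.28).

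Other cell types were set beside the 3 reference genes. Over 21 relations with lists of lymphoid stroma, myeloid cells, neutrophils, mast cells, endothelium, fibroblasts and proliferation, none had an adjusted p below 0.05. The largest rho was that of JCHAIN with the mast cell list (0.44, r = 0.55, permutation p = 0.0151, adjusted p = 0.317). None of 12 relations with the total count, the size factor, the share of the 10 largest genes or the number of genes with at least 10 counts had one either. The myeloid list, taken as a reference after the values were seen, rose with 3 of the 33 lymphocyte genes tested, where 0.856 percent of all genes rose, and fell with none of them, where 0.00535 percent did. These were CD4 (rho 0.76, r = 0.78, adjusted p = 0.000482), IL2RG (rho 0.64, adjusted p = 0.0246) and CD2 (rho 0.61, adjusted p = 0.0449). CD4 had as its closest genes MARCO (rho 0.79), MGST1 (0.78), CYBB (0.78) and AIF1 (0.77), of which MARCO, CYBB and AIF1 are genes of phagocytes. CD22 was close to PTPN6 (0.76), a phosphatase of blood cells, and CSF1R (0.74), the receptor of macrophage growth factor. With the whole myeloid list, which holds CSF1R, CD22 had a rho of 0.40 and missed the threshold (adjusted p = 0.508). The part of myeloid cells in the CD4 values was not tested.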

How the data were processed

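Total RNA of 30 canine thyroid tumors had been made into libraries with ribosomal RNA removed. Using STAR on the CanFam3.1 genome, the authors counted reads per Ensembl gene and deposited these raw counts without normalization, in a table with 0 columns of no sample. STAR's own gene counting was used, and its strand setting is not given in the sources used here. The genes and lists were chosen with earlier results of these data known.

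Size factors were medians of ratios over 15611 genes with a count in every tumor, and levels were log2 of the normalised count plus 1. A gene was tested if 5 or more tumors had 10 or more counts of it. The reference gene of each cell type was the first in a set order to reach 10 counts in 15 tumors, and no cytotoxic gene qualified. Spearman's rho with it was adjusted by Benjamini-Hochberg over all genes, from a t approximation, and single relations were tested two-sided with 100000 permutations. Pearson's r was repeated with the 2 tumors of most extreme reference level left out. Python 3.11.15, scipy 1.17.1, edgeR 4.0.16 (quasi-likelihood slope) and DESeq2 1.42.0 (Wald slope) in R 4.3.3 were used, and the slopes were tested on simulated data.

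Genes named in full were the reference genes, the highest and lowest rho of each group, the 5 largest and 3 smallest SDs, genes of a sign other than their group's, the 5 closest outside genes, and the extremes of each list; others were chosen after their values were seen. The alternatives were TMM and total-count scaling, a pseudocount of 8, no and a stricter filter, Pearson's r, both slopes, leaving out TC1088 or TC538, 2 principal components regressed out and the next reference gene. MS4A1 as reference, the myeloid list as reference and leaving out each tumor in turn were added after seeing the data. Each tumor counted as 1 sample. No sequence of the genes and no gene lengths were available for use here, so levels are compared between tumors within a gene. Where counts or levels of different genes are set side by side, they do not measure relative transcript numbers. Results of some genes are not reported here.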

Additional observations from a re-analysis of the deposited data

How the results depend on the processing

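The direction of the 10 genes that rose with CD3E held in every alternative run, and all 10 kept their call under TMM scaling, total-count scaling, a pseudocount of 8, no filter, Pearson's r, both count-based slopes and without TC1088 or TC538. Under the stricter filter 7 genes were called, because fewer were tested. Called genes among the 32 numbered 16 by Pearson's r, 21 by edgeR's slope, 24 by DESeq2's slope and 1 with the principal components regressed out, and 9 to 12 with a tumor left out. Calls gained by edgeR's slope were CD3G, CD2, CD7, CD28, IL7R, GZMA, PRF1, CCL5, CXCR3, CD22 and JCHAIN. With CD3D as reference 8 were called, without CD27, ZAP70, GZMK and CCR7 and with CD3G and CD2. For all genes, those rising with CD3E numbered 81, and 123 (TMM), 243 (total-count scaling), 40 (stricter filter), 838 (Pearson's r), 1632 (edgeR), 1910 (DESeq2), 2 (components regressed out) and 34 to 132 with a tumor left out (37 without TC1020, 34 without TC1473, 37 without TC1601, 36 without TC2289). Those falling numbered 52, and 497 (Pearson's r), 308 (edgeR), 882 (DESeq2), 31 (without TC1088), 84 (without TC538), 0 (components) and 17 to 88 with a tumor left out. Of the reference CD79A, lymphocyte genes rising were 2 (edgeR), 1 (DESeq2) and 1 (MS4A1 as reference) in place of 0, and falling 1 (edgeR) and 1 (DESeq2) in place of 0. All genes rising with it numbered 262, and 525 (edgeR), 679 (DESeq2), 529 (without TC1088), 0 (CD79B as reference), 2 (MS4A1) and 168 to 483 with a tumor left out. Those falling numbered 160, and 57 (TMM), 21 (total-count scaling), 97 (Pearson's r), 484 (edgeR), 791 (DESeq2), 488 (without TC1088), 73 (without TC538), 0 (CD79B), 1 (MS4A1) and 67 to 361 with a tumor left out. Of the reference JCHAIN, lymphocyte genes rising were 1 (TMM), 5 (Pearson's r), 10 (edgeR), 13 (DESeq2), 1 (components) and 0 to 1 with a tumor left out. All genes rising with it numbered 8, and 28 (TMM), 5 (stricter filter), 549 (Pearson's r), 1068 (edgeR), 2006 (DESeq2), 29 (components), 60 (TNFRSF17 as reference) and 3 to 26 with a tumor left out. Those falling numbered 2, and 8 (TMM), 1 (total-count scaling), 895 (Pearson's r), 433 (edgeR), 1523 (DESeq2), 0 (without TC538), 11 (components), 65 (TNFRSF17) and 0 to 24 with a tumor left out. The median SD of the level fell to 0.76 with a pseudocount of 8, against 0.79 over all genes, and by construction a larger pseudocount shrinks low counts. The cause of the other shifts was not tested.

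These values turned sign. CD5 with CD3E was 0.12 (total-count scaling), 0.16 (Pearson's r) and 0.25 (both slopes). CD79A with CD3E was -0.03 (components) and with CD3D -0.09, and TNFRSF17 with CD3E was -0.03 (components). With CD79A, CD79B was -0.02 (edgeR), -0.00 (DESeq2) and -0.00 (without TC538), TNFRSF17 was -0.07 (without TC1088), -0.04 (without TC538), -0.06 (components) and -0.06 to 0.11 with a tumor left out, and BLK was -0.14 to 0.02 with a tumor left out and 0.16 with MS4A1. CCR7 with CD79A went from a rho of -0.06 to an edgeR slope of 0.88 (adjusted p = 0.0267). JCHAIN went from -0.16 with CD79A to 0.52 with CD79B and 0.61 with MS4A1. With JCHAIN, POU2AF1 went from 0.37 to -0.25 (both slopes) and TNFRSF17 was -0.06 to 0.08 with a tumor left out. The endothelial list was 0.15 with CD3E (components) and -0.04 with CD79A (without TC538), the fibroblast list 0.02 with CD79A (without TC1088) and the proliferation list 0.03 with JCHAIN (without TC538). The size factor was 0.02 with CD3E (total-count scaling) and 0.00 (components), and 0.05 with JCHAIN (without TC538), where the total count was 0.03. The number of genes with at least 10 counts was 0.02 (TMM) and 0.06 (total-count scaling) with CD79A. No cytotoxic reference gene qualified, so its relations were not run. No paired analysis was possible because the tumors form 1 group with no shared numbers. With a median count of 23.5 for CD3E and under 10 for 14 of the 36 genes, counting error limits how closely these genes can be seen to follow each other.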

Other observations

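Genes of lymphocyte receptor rearrangement and of lymphoid tissue were looked at after their values were seen. RAG1, which cuts the antigen receptor genes in developing lymphocytes, had a median count of 0. It had 615 counts in TC1020, 39 in TC1936, 18 in TC2289, 16 in TC1601 and 8 in TC1473, the tumors with high C cell markers. The next tumor, TC22, had 4, and TC815, rich in lymphocyte genes, had 1. Which cells the RAG1 counts came from was not tested. RAG2, the partner of RAG1, had 13 counts each in TC2289 and TC1020. In TC1020 the terminal transferase gene DNTT had 4 counts and PTCRA, of the immature T cell receptor, 0. LTA, the cytokine lymphotoxin alpha, was highest in TC1020 (71 counts) and TC1473 (36), with a median of 2. TC1020 and TC1473 were among the tumors with the most CD3E counts, but LTA did not follow CD3E (rho 0.10, permutation p = 0.601). TC1601 and TC815, also high for CD3E, had 2 counts of LTA each.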
